A study of Mus musculus with 6 samples.

Results

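The genes of the unfolded protein response and the integrated stress response were described here as a set of 35, chosen by name from a table of 55335 mouse genes: the sensors of both responses, their transcription factors, and the chaperones and degradation factors of the endoplasmic reticulum (ER). All 35 were found, and 34 averaged 1 FPKM or more in AAV-shbrpf1 or in AAV-scramble libraries and entered the tests. The exception was Atf3. FPKM counts the fragments of a gene relative to the length of its transcripts and the depth of the library. RNA was sequenced from 6 libraries of primary GABAergic interneurons, which inhibit other neurons by releasing GABA, cultured from wild-type C57BL/6 brains at embryonic day 14.5. Infection with an adeno-associated virus (AAV) lasted 12 hours in all samples. In 3 libraries the virus was AAV-shbrpf1, which the study uses to knock down Brpf1, a scaffold subunit of histone acetyltransferase complexes. In the other 3 it was AAV-scramble. The question of the study is the role of Brpf1 in interneurons of the medial ganglionic eminence, a zone of the ventral forebrain. Each group carries the numbers 1, 2 and 3, whose meaning the labels do not explain. Nor do they tell if samples of one group are separate cultures or animals, and p-values therefore cover the spread between these samples alone, which may be technical. One label field calls the source neural progenitor cells, and no source used here states when RNA was harvested after infection.

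Proteins that are secreted or sit in membranes fold in the ER with the help of chaperones and disulfide isomerases. When unfolded protein builds up there, the sensors IRE1 (Ern1), PERK (Eif2ak3) and ATF6 are switched on: IRE1 splices the Xbp1 message, ATF6 is cut into a transcription factor, and PERK phosphorylates the translation factor eIF2 alpha (Eif2s1). Other kinases phosphorylate the same site when amino acids or heme run short, which lowers protein synthesis in general while the message of Atf4 is translated more, and this branch is called the integrated stress response. Switching on a sensor happens in the protein, and splicing of Xbp1 cannot be read from a value per gene, so the levels below are those of messages alone.

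The depth, estimated from steps between low values, was 13.1 to 21.1 M fragments per library. Brpf1 measured 3.13, 4.58 and 3.78 FPKM in AAV-shbrpf1 libraries 1, 2 and 3, and 3.29, 5.45 and 4.84 FPKM in AAV-scramble libraries 1, 2 and 3. It was lower in 3 of 3 pairs of libraries with the same number, but the difference did not pass the test (-0.18 ± 0.26 SE on the log2(FPKM + 1) scale, limma adjusted p = 1.00; with the replicate block, 95% interval -0.44 to 0.07). All 10 GABAergic markers were measured, with summed levels of 827, 926 and 951 FPKM in AAV-shbrpf1 libraries and 799, 1018 and 1120 FPKM in AAV-scramble libraries. No glutamatergic marker of 5 was measured, and of 8 microglial markers 1 was, with Cx3cr1 at 0 in all 6 libraries. In bulk samples such as these, fewer cells of a type and less RNA per cell cannot be told apart.

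The promoters of the set are shown first, because known binding sites of its transcription factors occur in some of them. RefSeq windows of GRCm38.p6 from 250 bases before to 50 bases after a gene's start were available for 31 members, and none for Atf6, Ppp1r15b, Hyou1 and Manf. The ER stress response element, to which ATF6 and XBP1 bind together with NF-Y, was searched on both strands as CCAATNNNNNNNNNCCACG. It was found in 8 of the 31 members (Calr, Canx, Creld2, Dnajc3, Hsp90b1, Hspa5, Pdia6 and Syvn1) and in 0.119% of all 32851 windows. The C/EBP-ATF element bound by ATF4 was searched on both strands as TGATGNAA. It was found in 5 of the 31 members (Asns, Atf3, Chac1, Herpud1 and Trib3) and in 3.97% of all windows. No match of one overlapped a match of the other. The match in Trib3 lies 15 to 22 bases after the start of its window's gene, and the other matches lie before the start. For Dnajc3, Herpud1 and Trib3, the 50 bases after the start were not found in a GENCODE M21 transcript of the gene. The start used for these 3 windows may thus differ from that annotation. Both searches were chosen after the values had been seen, and a match describes letters in a window and does not show that a factor binds there. In the stretches below, given 5′ to 3′ on the strand of the gene, capitals mark the fixed ends of the ER stress response element in the first 4 and the whole C/EBP-ATF element in the other 5. Where the match lies on the opposite strand, the capitals show its reverse complement.
Hspa5 (chr2:34771989-34772079, plus strand): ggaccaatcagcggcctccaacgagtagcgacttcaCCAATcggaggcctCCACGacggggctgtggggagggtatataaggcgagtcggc
Hsp90b1 (chr10:86705497-86705692, minus strand): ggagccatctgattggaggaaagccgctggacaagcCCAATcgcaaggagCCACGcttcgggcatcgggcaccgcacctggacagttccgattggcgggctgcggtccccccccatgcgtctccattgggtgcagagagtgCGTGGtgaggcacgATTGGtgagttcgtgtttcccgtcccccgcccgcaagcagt
Calr (chr8:84847039-84847129, minus strand): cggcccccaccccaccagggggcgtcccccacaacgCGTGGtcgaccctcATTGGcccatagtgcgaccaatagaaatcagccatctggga
Syvn1 (chr19:6046496-6046586, plus strand): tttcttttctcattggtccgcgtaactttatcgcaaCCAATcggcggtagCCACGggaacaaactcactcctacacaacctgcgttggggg
Atf3 (chr1:191183400-191183479, minus strand): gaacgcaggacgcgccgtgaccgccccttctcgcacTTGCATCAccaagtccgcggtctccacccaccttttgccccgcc
Trib3 (chr2:152344011-152344082, minus strand): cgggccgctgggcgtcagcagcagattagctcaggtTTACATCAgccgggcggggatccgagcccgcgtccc
Asns (chr6:7693189-7693268, minus strand): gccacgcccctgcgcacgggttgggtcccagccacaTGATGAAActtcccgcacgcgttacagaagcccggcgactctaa
Chac1 (chr2:119351013-119351092, plus strand): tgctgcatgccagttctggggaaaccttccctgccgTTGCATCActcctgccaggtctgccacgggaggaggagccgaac
Herpud1 (chr8:94386281-94386360, plus strand): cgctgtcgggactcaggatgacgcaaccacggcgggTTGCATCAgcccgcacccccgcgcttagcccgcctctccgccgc
Hspa5 carries the element shortly before its start, and in the Hsp90b1 window it occurs on both strands.

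The set was expressed at levels that spanned from under 1 FPKM to over 100 FPKM, with the chaperones and disulfide isomerases at the top. Calr, the calcium-binding lectin chaperone calreticulin, was the most abundant, with 147, 224 and 183 FPKM in AAV-shbrpf1 libraries and 129, 243 and 197 FPKM in AAV-scramble libraries. This mean of 187 FPKM placed it at rank 131 of the 12792 genes tested. Canx, its membrane-bound relative calnexin, measured 104, 49.0 and 85.7 FPKM in AAV-shbrpf1 libraries and 105, 59.9 and 77.2 FPKM in AAV-scramble libraries. Atf4 was the most abundant transcription factor, at a mean of 55.0 FPKM. The sensors were lower: Atf6b averaged 26.3 FPKM, and Ern1, the scarcest, averaged 1.29 FPKM. At the low end Atf3 rested on an estimated 14.5 to 44.1 fragments per library and Trib3 on 20.01 to 41.6, which gives counting errors of 15.1% to 26.3% and 15.5% to 22.4% of a value. The summed level of all 35 genes was 932, 846 and 835 FPKM in AAV-shbrpf1 libraries and 918, 896 and 833 FPKM in AAV-scramble libraries, so the libraries of a number were close to each other.

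**Figure D1:**
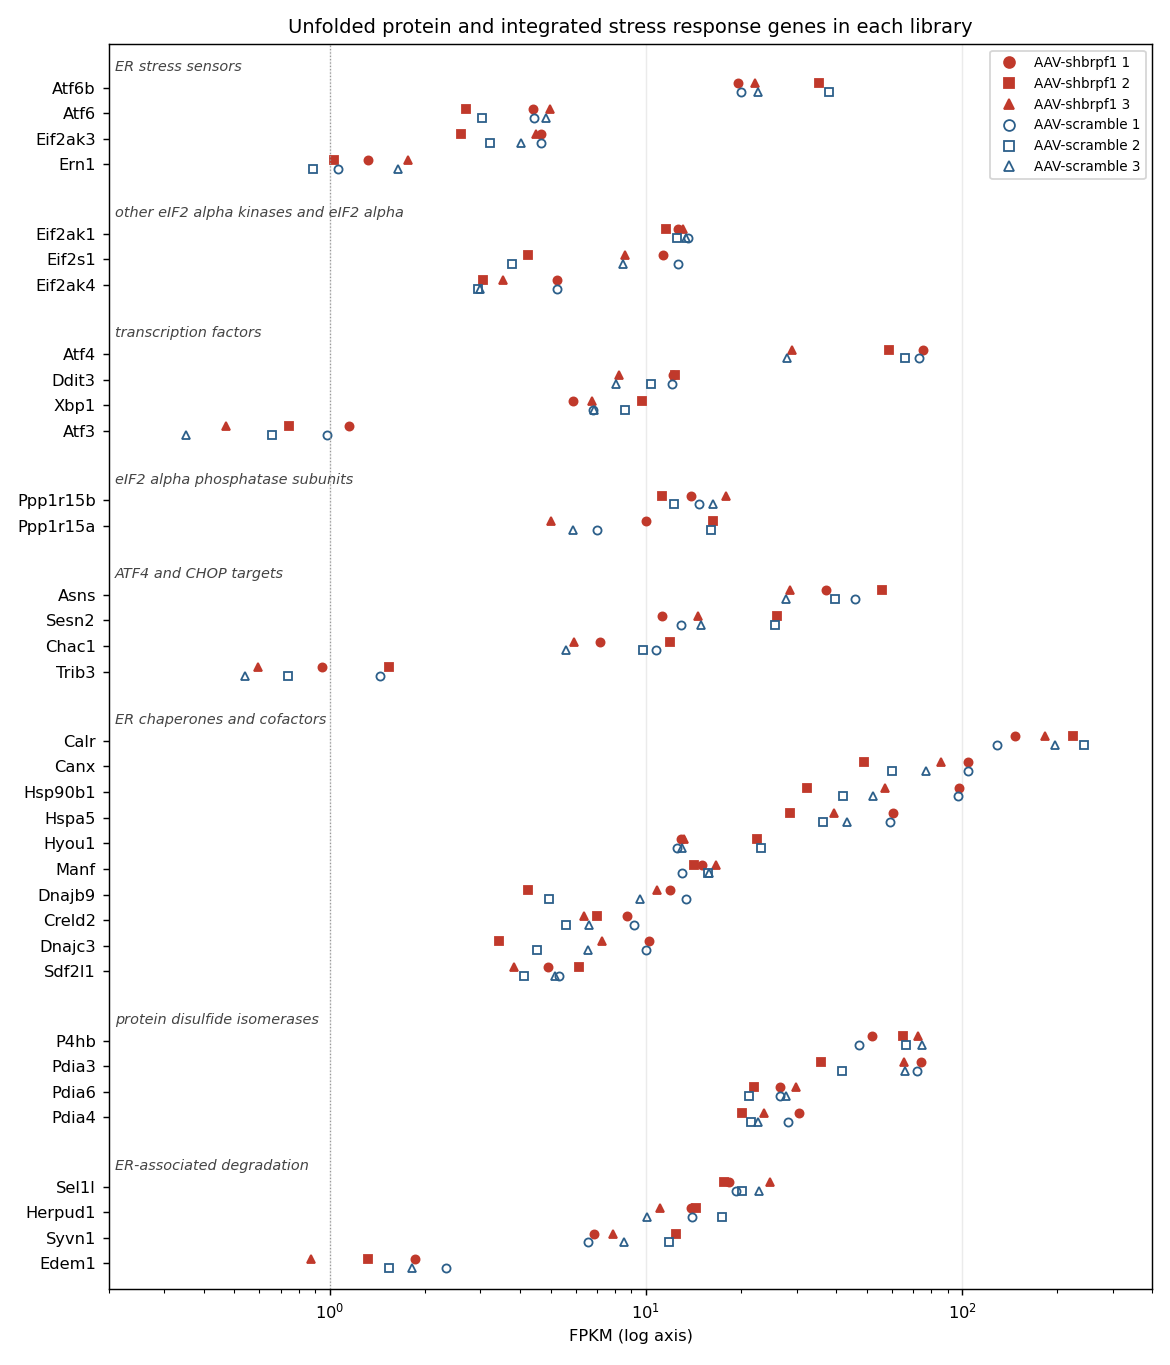
Level of each of the 35 genes in each of the 6 libraries, in FPKM on a log axis, grouped by role; colours give the virus and marker shapes the replicate number. The values of the 2 viruses overlap for each of the 34 measured genes, and the range runs from Atf3 at 0.352 FPKM to Calr at 243 FPKM.

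The first comparison asks whether the message of any of these genes differed between AAV-shbrpf1 and AAV-scramble. None of the 34 measured genes rose or fell with AAV-shbrpf1 at an adjusted p under 0.05 (limma, two-sided, adjusted over the 12792 genes), and neither did any other gene tested, so the background was 0%. With the replicate block, which compares libraries within a number, the count was again 0 of 34 against a background of 0%. At an unadjusted p under 0.05 the set had 0 genes, against 23 (0.18%) of all genes without the block and 280 (2.19%) with it. The differences were small on the log2(FPKM + 1) scale. They ran from -0.31 for Edem1 to 0.11 for Ern1 with a median of -0.02, and the median over all genes tested was also -0.02. Of the 34, 15 were above 0 and 19 below, and the median size without sign was 0.05 against 0.07 over all genes. No gene of the set had AAV-shbrpf1 libraries that all lay above or all lay below the AAV-scramble libraries, which held for 0.578% and 0.492% of all genes.

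Each 95% interval covers a single gene without adjustment, on a scale that understates changes of low genes. Trib3, for example, was 109% higher with AAV-shbrpf1 in pair 2, which is 0.55 on that scale. In simulated data, the fit with the block recovered 56% of log2 changes of 1 at an adjusted p under 0.05. The intervals are therefore no limits of detection. With the block, the 95% interval lay inside -1 to 1 for 34 of 34 genes and inside -0.5 to 0.5 for 32 of 34. Without the block the same held for 28 and 0. Within pairs of the same number, Ern1, Eif2ak4, Ddit3 and Pdia6 were higher with AAV-shbrpf1 in 3 of 3 pairs, 4 genes of 34 beside 7.15% of all genes. Atf6b, Eif2ak1 and Edem1 were lower in 3 of 3 pairs, 3 genes of 34 beside 11.3% of all genes. These counts of pairs carry no test, and the members stood near the background in both.

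**Figure D2:**
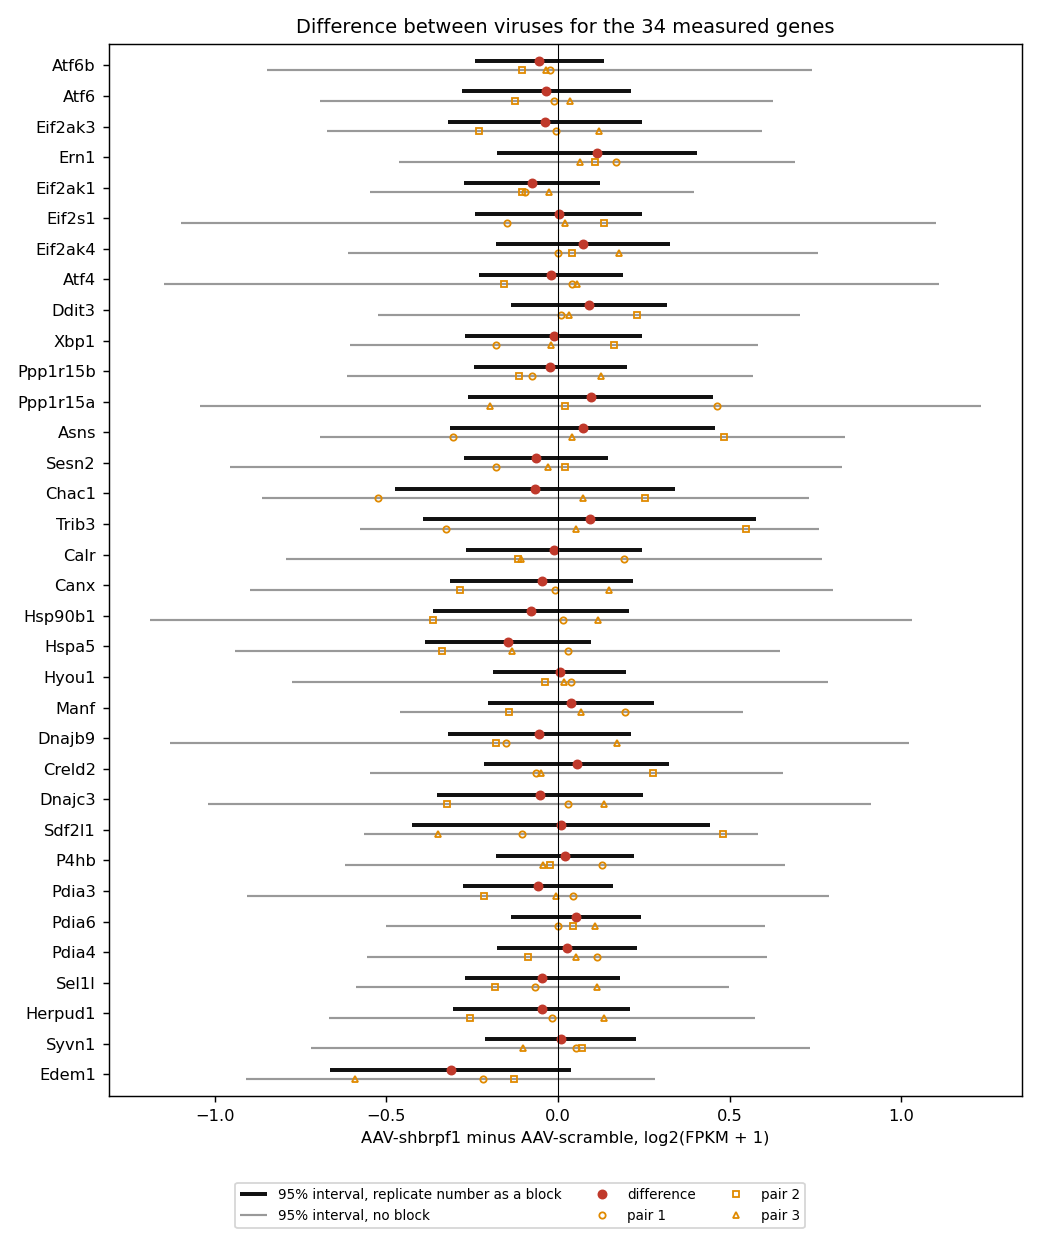
Difference AAV-shbrpf1 minus AAV-scramble for the 34 measured genes on the log2(FPKM + 1) scale: filled circles are the differences, open symbols the 3 pairs, thick bars the 95% intervals with the replicate number as a block and thin bars those without it. All intervals include 0, and Edem1 lies lowest at -0.31.

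Among the sensors, Atf6b, a relative of ATF6 that is also activated by cleavage, measured 19.6, 35.3 and 22.2 FPKM in AAV-shbrpf1 libraries and 19.9, 38.1 and 22.7 FPKM in AAV-scramble libraries. Atf6 measured 4.40, 2.70 and 4.97 FPKM in AAV-shbrpf1 libraries and 4.45, 3.03 and 4.82 FPKM in AAV-scramble libraries. In both genes the library numbered 2 stood apart from the others in either group, Atf6b above them and Atf6 below them. Ern1, the kinase and RNase that splices Xbp1, had 1.32, 1.03 and 1.77 FPKM with AAV-shbrpf1, against 1.06, 0.886 and 1.65 FPKM with AAV-scramble. It was 24.2%, 16.5% and 7.41% higher with AAV-shbrpf1 in pairs 1, 2 and 3, yet the groups overlapped and the difference of 0.11 ± 0.25 (SE) did not pass (limma adjusted p = 1.00). Eif2ak3, which encodes PERK, averaged 3.91 ± 1.14 FPKM with AAV-shbrpf1 and 3.98 ± 0.729 FPKM with AAV-scramble (SD, n = 3 each).

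Of the other kinases of eIF2 alpha, Eif2ak1, which answers to heme, had 12.7, 11.6 and 13.1 FPKM with AAV-shbrpf1, against 13.6, 12.5 and 13.4 FPKM with AAV-scramble. It was the steadiest gene of the set, with a ratio of 1.10 between its highest and lowest replicate numbers. Eif2ak4, the amino acid sensor GCN2, measured 5.24, 3.05 and 3.53 FPKM in AAV-shbrpf1 libraries and 5.24, 2.94 and 3.00 FPKM in AAV-scramble libraries. Pair 1 of Eif2ak4 was all but equal. Eif2s1, the substrate of these kinases, measured 11.3, 4.24 and 8.61 FPKM in AAV-shbrpf1 libraries and 12.6, 3.78 and 8.48 FPKM in AAV-scramble libraries. Its level followed the number closely, and its difference between viruses was 0.0015 with a blocked 95% interval of -0.24 to 0.25.

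The transcription factors showed the same arrangement. Atf4, the effector of the integrated stress response, measured 75.4, 58.9 and 29.1 FPKM in AAV-shbrpf1 libraries and 73.2, 65.8 and 27.9 FPKM in AAV-scramble libraries. The libraries numbered 3 were the lowest in both groups, and the virus difference was -0.02 with a blocked 95% interval of -0.23 to 0.19. Ddit3, the ATF4 target that encodes CHOP, a factor linked to cell death under lasting stress, measured 12.2, 12.4 and 8.23 FPKM in AAV-shbrpf1 libraries and 12.1, 10.4 and 8.03 FPKM in AAV-scramble libraries. Its largest gap was in pair 2, 19.1% higher with AAV-shbrpf1, and its difference over groups of 0.09 ± 0.26 (SE) did not pass (limma adjusted p = 1.00). Exons of Ddit3 overlap those of Mars and Gm4189 on the opposite strand and of another identifier annotated as Ddit3, so its value may be mixed with theirs, since no source used here says whether strand was used. Overlaps with exons of other genes were annotated for 12 of the 35 genes, on the opposite strand for 11. Xbp1, the factor downstream of IRE1, averaged 7.46 ± 2.01 FPKM with AAV-shbrpf1 and 7.42 ± 1.00 FPKM with AAV-scramble (SD, n = 3 each). Atf3, which is induced by ATF4, measured 1.15, 0.742 and 0.472 FPKM in AAV-shbrpf1 libraries and 0.980, 0.659 and 0.352 FPKM in AAV-scramble libraries, and it was not tested.

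Ppp1r15a and Ppp1r15b encode the subunits that lead a phosphatase to eIF2 alpha, the first of them induced by stress and the second present without it. Ppp1r15a measured 10.02, 16.3 and 5.01 FPKM in AAV-shbrpf1 libraries and 6.996, 16.1 and 5.90 FPKM in AAV-scramble libraries. Ppp1r15b measured 13.9, 11.2 and 17.9 FPKM in AAV-shbrpf1 libraries and 14.7, 12.2 and 16.3 FPKM in AAV-scramble libraries. The pair thus ranked the numbers in opposite order in both groups: number 2 was highest and number 3 lowest for Ppp1r15a, and the reverse held for Ppp1r15b. Neither passed the test between viruses (differences of 0.09 and -0.02, each with a limma adjusted p of 1.00).

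The values of the 4 targets of ATF4 and CHOP were lower with AAV-shbrpf1 in pair 1 and higher in pair 2, though by little for Sesn2. Asns, asparagine synthetase, measured 37.0, 55.7 and 28.6 FPKM in AAV-shbrpf1 libraries and 46.0, 39.6 and 27.8 FPKM in AAV-scramble libraries. Chac1, which breaks down glutathione, measured 7.17, 11.9 and 5.92 FPKM in AAV-shbrpf1 libraries and 10.7, 9.82 and 5.58 FPKM in AAV-scramble libraries. Trib3, a pseudokinase that feeds back on ATF4, measured 0.947, 1.54 and 0.596 FPKM in AAV-shbrpf1 libraries and 1.44, 0.736 and 0.538 FPKM in AAV-scramble libraries. In pair 1 the 3 genes differed by -19.5% for Asns, -33.3% for Chac1 and -34.3% for Trib3. In pair 2 they differed by 40.7%, 21.2% and 109%, and in pair 3 by 2.87%, 6.05% and 10.7%. The 3 were picked out after their values were seen, and the difference over groups did not pass for any of them (limma adjusted p = 1.00 each, differences of 0.07, -0.07 and 0.09). Sesn2, a stress-induced inhibitor of mTORC1, measured 11.3, 26.0 and 14.6 FPKM in AAV-shbrpf1 libraries and 12.9, 25.6 and 14.96 FPKM in AAV-scramble libraries, which is -12.8% in pair 1, 1.40% in pair 2 and -2.16% in pair 3.

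None of the 14 chaperones, cofactors and disulfide isomerases passed the test between viruses. Hspa5, the chaperone BiP that holds the sensors inactive, measured 60.5, 28.6 and 39.5 FPKM in AAV-shbrpf1 libraries and 59.3, 36.4 and 43.4 FPKM in AAV-scramble libraries. It was level in pair 1 and 21.4% lower with AAV-shbrpf1 in pair 2. Its difference over groups was -0.15 ± 0.34 (SE; limma adjusted p = 1.00; blocked 95% interval -0.39 to 0.09). P4hb, a disulfide isomerase, measured 51.9, 65.3 and 72.3 FPKM in AAV-shbrpf1 libraries and 47.4, 66.4 and 74.5 FPKM in AAV-scramble libraries. Pdia3, the isomerase that works with calnexin and calreticulin, measured 74.4, 35.8 and 65.5 FPKM in AAV-shbrpf1 libraries and 72.1, 41.7 and 65.8 FPKM in AAV-scramble libraries. P4hb was lowest in number 1 in both groups, while Pdia3 was lowest in number 2. Across the other 11 genes of both roles the difference between viruses ran from -0.08 for Hsp90b1 to 0.05 for Creld2.

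Among the genes of ER-associated degradation, which returns misfolded proteins to the cytosol, Edem1 had the largest difference of the set. This lectin, which marks misfolded glycoproteins, had 1.87, 1.32 and 0.871 FPKM with AAV-shbrpf1, against 2.34, 1.54 and 1.82 FPKM with AAV-scramble. The gap was widest in pair 3, at -52.2%, and the groups overlapped. The difference of -0.31 ± 0.25 (SE) had a 95% interval of -0.91 to 0.28 and did not pass (unadjusted p = 0.255, limma adjusted p = 1.00). With the block the interval was -0.66 to 0.04 (unadjusted p = 0.0705, limma adjusted p = 1.00). Sel1l, the adaptor of the ligase complex, had 18.3, 17.6 and 24.7 FPKM with AAV-shbrpf1, against 19.3, 20.1 and 22.8 FPKM with AAV-scramble. Herpud1, a stress-induced partner of that complex, had 13.9, 14.4 and 11.1 FPKM with AAV-shbrpf1, against 14.02, 17.5 and 10.1 FPKM with AAV-scramble. Syvn1, the ligase itself, averaged 9.07 ± 2.99 FPKM with AAV-shbrpf1 and 8.97 ± 2.66 FPKM with AAV-scramble (SD, n = 3 each).

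Other genes of both responses were read from lists kept apart from the set. Of the 28 measured genes of the integrated stress response (tRNA synthetases, eIF2B subunits, amino acid transporters and serine synthesis enzymes among them) 0 were called between viruses, with a median difference of -0.05. Of the 44 measured genes of the unfolded protein response and ER quality control 0 were called, with a median of -0.03. The smallest p-values among them belonged to Txndc5, a disulfide isomerase, Ssr1, a subunit of the translocon-associated complex, and Pdia5 below 0, with differences of -0.26, -0.27 and -0.17. Above 0 they belonged to Cnpy2, Derl2, a factor of ER-associated degradation, and Uggt1, the folding sensor of glycoproteins, with differences of 0.15, 0.18 and 0.11. Each of the 6 had a limma adjusted p of 1.00. Txndc5 had 15.3, 18.98 and 9.96 FPKM with AAV-shbrpf1, against 13.9, 18.9 and 19.5 FPKM with AAV-scramble, so that its gap lay in the pair numbered 3.

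The second comparison was between replicate numbers, by which the members varied far more than by virus. Of the variation of log2(FPKM + 1) over the 34 genes, measured as a sum of squares, 92.8% lay between numbers, 1.32% between viruses and 5.91% in the remainder, against 86.9%, 3.62% and 9.495% over all genes tested. In limma's F test over the 3 numbers with the group in the model, 27 of 34 genes (79.4%) differed at an adjusted p under 0.05, beside a background of 69.4% of all genes. The share of members called was thus near that of genes in general. The count was 15 without AAV-scramble library 1, 16 without AAV-shbrpf1 library 1, 15 without both libraries numbered 1 and 15 without both numbered 2. The 7 genes that were not called were Ern1, Eif2ak1, Trib3, Sdf2l1, Manf, Edem1 and Sel1l.

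In number 2 minus number 1, 8 genes were higher (background 21.7%) and 13 lower (background 40.9%). In number 3 minus number 1, 2 were higher (background 17.6%) and 10 lower (background 18.5%). In number 3 minus number 2, 11 were higher (background 34.5%) and 10 lower (background 13%). The median difference over all genes was -0.25, -0.01 and 0.25 for the 3 contrasts, and -0.14, -0.22 and 0.10 over the members. This median is not a shift that each gene shares, since genes were called in both directions in each contrast. Scaling by the median of ratios moved the median of all genes by 0.13, -0.03 and -0.16, to -0.11, -0.04 and 0.09. The calls in a contrast depended on single libraries. Of the 21 calls in number 2 minus number 1, 10 were left without AAV-scramble library 1 and 13 without AAV-shbrpf1 library 1. The 12 in number 3 minus number 1 became 3 and 4 without those libraries, and 6 without library 3 of either group. The 21 in number 3 minus number 2 became 10 without library 1 of either group, 10 without AAV-shbrpf1 library 2 and 9 without AAV-shbrpf1 library 3.

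Atf4 and several other genes were lowest in the libraries numbered 3. Both of these libraries lay below the other 4 for Atf4, Ddit3, Ppp1r15a, Trib3, Asns, Chac1 and Herpud1, 7 of 34 genes beside 6.58% of all genes, and also for Atf3 outside the tests. Of these 8, Asns, Atf3, Chac1, Herpud1 and Trib3 carry the C/EBP-ATF element in the windows printed above, and all 5 members with the element are among the 8. The grouping and the search were both made after the values were seen, and their overlap carries no test. Not every target was in the grouping: Sesn2 was lowest in number 1. After the correction for GC content and length described below, Trib3 turned from -0.42 to 0.087 in number 3 minus number 2. In that contrast Chac1 (-0.36) and Herpud1 (-0.30) were not called (limma adjusted p of 0.224 and 0.164). Asns was called there (-0.94, limma adjusted p = 0.0173). Both libraries numbered 3 lay highest for 7 genes (Ern1, Atf6, Ppp1r15b, Manf, Pdia6, P4hb and Sel1l), beside 16.3% of all genes. Number 1 was highest for 13 genes, most of them chaperones and kinases (background 33.7%), and lowest for 6 (23.5%). Number 2 was lowest for 14 genes (43.7%) and highest for 8 (20.3%).

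The mean of Atf4 was 28.5 FPKM in number 3, against 74.3 FPKM in number 1 and 62.4 FPKM in number 2 (n = 2 libraries each). It fell by 1.35 ± 0.10 (SE) in number 3 relative to number 1 (limma adjusted p = 0.00238) and by 1.10 relative to number 2 (limma adjusted p = 0.00245). The first of these calls was kept under each alternative run, with values from -1.41 to -1.30 when a library was left out. Ppp1r15a fell by 1.42 in number 3 relative to number 2 (limma adjusted p = 0.0034), and this call was kept in the same way. Ddit3 fell by 0.53 in number 3 relative to number 1 (limma adjusted p = 0.0134), a call lost without library 1 of either group or AAV-shbrpf1 library 3 (limma adjusted p of 0.0579 to 0.122). Asns, Chac1 and Herpud1 fell by 0.72, 0.81 and 0.54 in number 3 relative to number 2 (limma adjusted p of 0.0264, 0.0217 and 0.0181). Each of these 3 calls was lost without AAV-scramble library 3, at limma adjusted p of 0.0794, 0.0967 and 0.0837. Those of Asns and Chac1 were lost without AAV-shbrpf1 library 2 or 3 too (limma adjusted p of 0.0520 to 0.0953), and that of Herpud1 without AAV-scramble library 2 or library 1 of either group (0.0616 to 0.0731). With no filter on low values all 3 calls were lost as well (limma adjusted p of 0.0958, 0.0824 and 0.0570). Trib3 did not pass (-0.48, limma adjusted p = 0.148, in number 3 minus number 1).

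**Figure D3:**
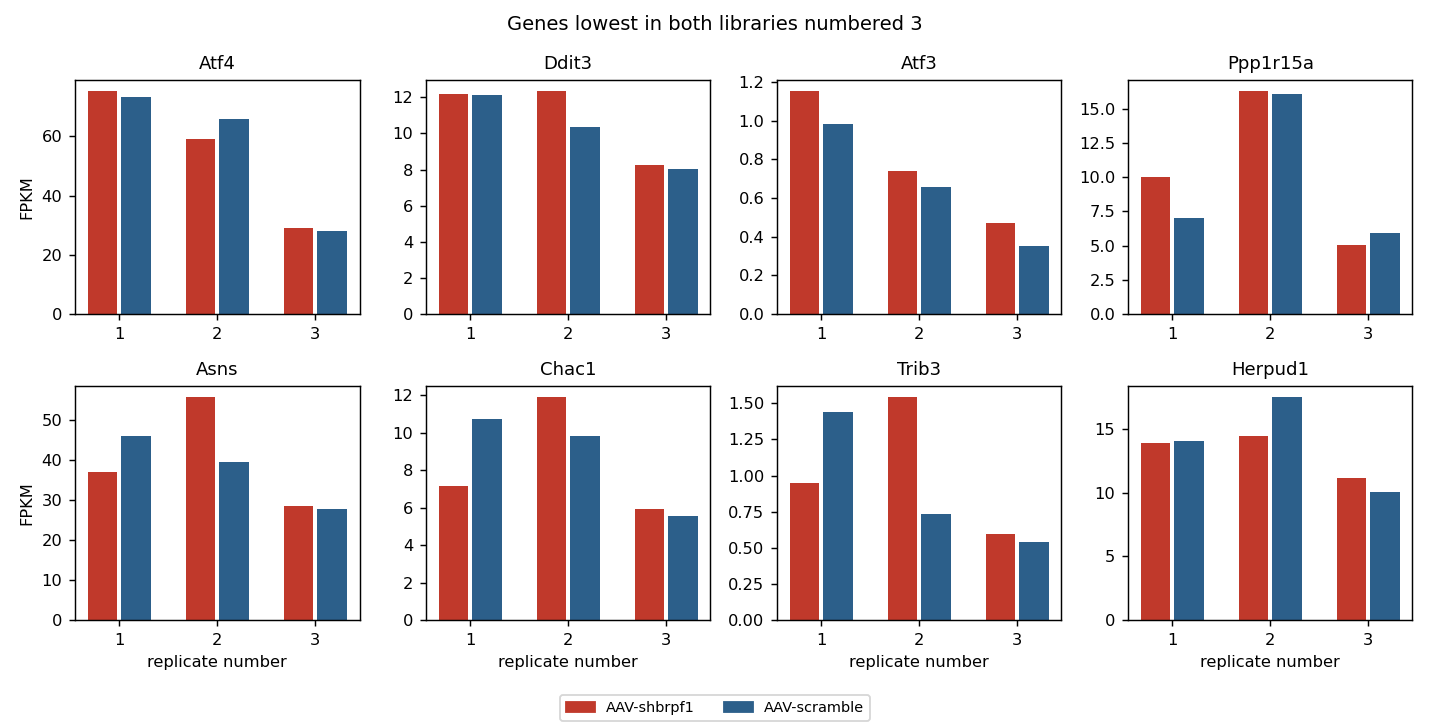
Level in FPKM of the 8 genes that were lowest in both libraries numbered 3, one panel per gene, with a bar per library in order of replicate number and AAV-shbrpf1 left of AAV-scramble. In number 3, Atf4 stands at 29.1 and 27.9 FPKM, and the other 4 libraries lie at 58.9 FPKM or above.

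Of the 6 sensors and kinases, 4 (Ern1, Eif2ak3, Atf6 and Eif2ak1) were lowest in both libraries numbered 2, where 43.7% of all genes were lowest, and so was Eif2s1. Eif2s1 fell by 1.37 in number 2 relative to number 1 (limma adjusted p = 0.00242), a ratio of 0.335. Atf6 rose by 0.61 in number 3 relative to number 2 (limma adjusted p = 0.0112), a call lost without library 1 of either group or AAV-shbrpf1 library 3 (limma adjusted p of 0.0519 to 0.0557). Eif2ak4 fell by 0.64 in number 2 relative to number 1 (limma adjusted p = 0.0102), which was lost without library 1 of either group (limma adjusted p of 0.0705 and 0.105). Atf6b went the other way and rose by 0.86 in number 2 relative to number 1 (limma adjusted p = 0.0028), and Sesn2 likewise rose by 1.03 (limma adjusted p = 0.00261).

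Genes of protein folding differed in direction between numbers. Hsp90b1, the ER member of the HSP90 family, measured 98.0, 32.4 and 57.0 FPKM in AAV-shbrpf1 libraries and 97.1, 42.0 and 52.4 FPKM in AAV-scramble libraries. It fell by 1.38 in number 2 relative to number 1 (limma adjusted p = 0.00265). Hspa5, Canx, Pdia3 and the cochaperones Dnajb9 and Dnajc3 also fell in that contrast, by 0.87, 0.94, 0.91, 1.29 and 1.17 (limma adjusted p of 0.00263 to 0.00432). Calr, which shares its folding cycle with Canx and Pdia3, rose by 0.76 in the same contrast (limma adjusted p = 0.00659; 0.0626 without AAV-scramble library 1). Hyou1, an ER chaperone that exchanges the nucleotide of BiP, rose by 0.79 (limma adjusted p = 0.00326). Of the 8 members with the ER stress response element, 6 had values below 0 in number 2 minus number 1 (Hsp90b1, Dnajc3, Canx, Hspa5, Creld2 and Pdia6, from -1.38 to -0.29) and 2 had values above 0 (Calr and Syvn1). Over all genes the median of this contrast was -0.25 and 40.9% were called lower, so values below 0 were common in general. Syvn1 rose by 0.77 (limma adjusted p = 0.00439; 0.0506 without AAV-scramble library 1), and its difference was 0.026 after the correction for GC content and length described below.

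**Figure D4:**
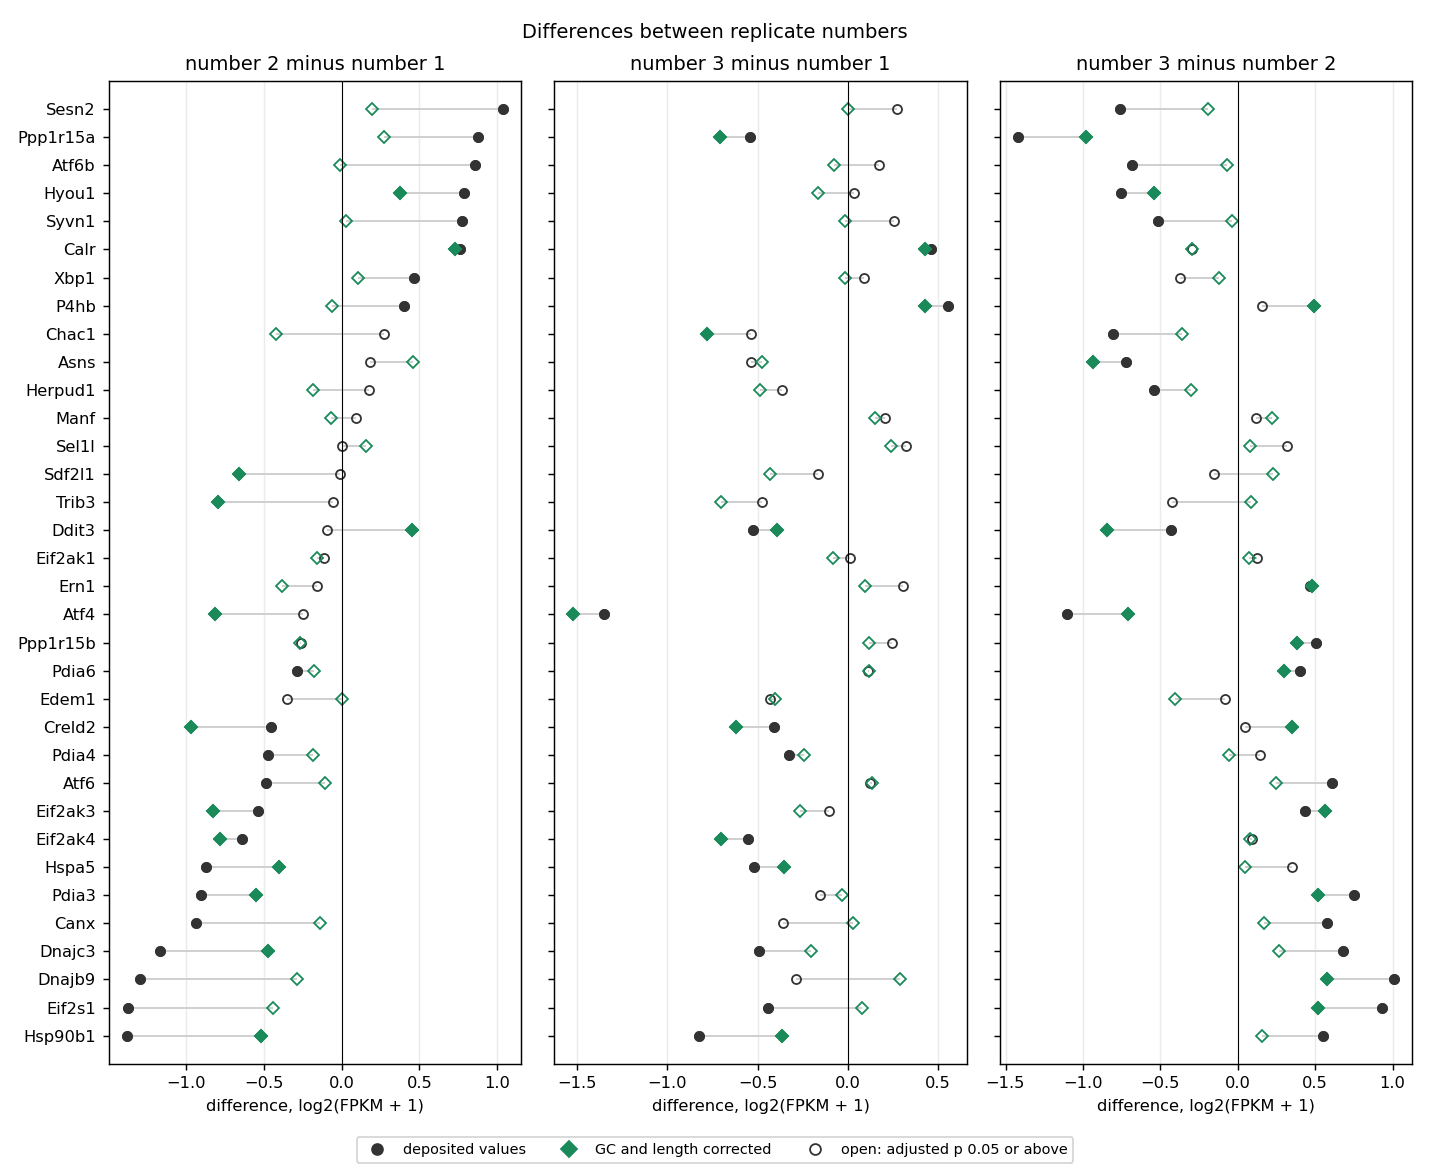
Differences between replicate numbers for the 34 measured genes, on the log2(FPKM + 1) scale, one panel per contrast; circles are the deposited values, diamonds the values after correction for GC content and length, and open symbols have an adjusted p of 0.05 or above. In number 2 minus number 1 the genes run from Hsp90b1 at -1.38 to Sesn2 at 1.03, and Atf4 is the farthest left in number 3 minus number 1 at -1.35.

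The base composition of the transcripts moved with these differences. Over the 34 genes, the GC content of the longest transcript and the difference number 2 minus number 1 had a Pearson r of 0.79, and over the 12785 genes with annotation the r was 0.74. In number 3 minus number 2 the values were -0.74 and -0.62, and in number 3 minus number 1 they were 0.19 and 0.46. These are descriptions across genes that share the same 6 libraries. Eif2s1, at 40.8% GC, and Sesn2, at 58.7% GC, lie near opposite ends of both scales. After a correction of each library for GC content and length, chosen after seeing the data, 18 of 34 genes differed between numbers beside a background of 55.1%. The members were thus called no more often than other genes on that scale. Atf4, Ddit3, Ppp1r15a and Asns were still called in the F test (limma adjusted p of 0.00561 to 0.0227), as were Hspa5, Hsp90b1, Calr and Hyou1 (0.0107 to 0.0382). In number 2 minus number 1 the corrected differences were -0.40 for Hspa5, -0.52 for Hsp90b1 and 0.37 for Hyou1, against -0.87, -1.38 and 0.79 before the correction. That of Calr was 0.73, against 0.76 before it. The corrected difference of Atf4 was -1.52 in number 3 minus number 1 and -0.71 in number 3 minus number 2. Sesn2, Atf6b, Syvn1, Canx, Atf6, Xbp1, Pdia4, Pdia6, Herpud1 and Chac1 were no longer called in that test, while Sdf2l1 was called only after the correction. In number 2 minus number 1, Eif2s1, Dnajb9, P4hb and Ppp1r15a also lost their calls. Their corrected differences were -0.44, -0.29, -0.059 and 0.27 (limma adjusted p of 0.0562, 0.0668, 0.578 and 0.208).

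**Figure D5:**
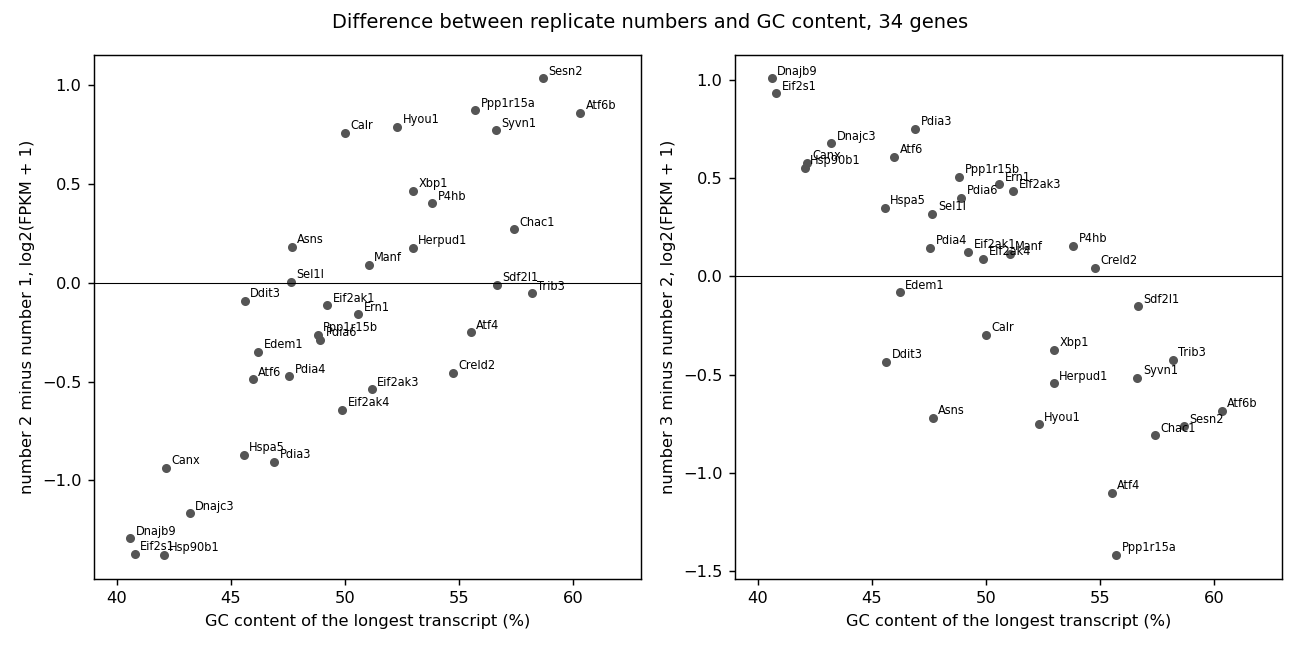
GC content of the longest transcript, in percent, against the difference between replicate numbers on the log2(FPKM + 1) scale, with a labelled point per member. In number 2 minus number 1 the points climb from Eif2s1 and Hsp90b1 at the lower left to Sesn2 and Atf6b at the upper right (r = 0.79 over 34 genes).

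The other genes of the integrated stress response had 22 of 28 genes called in the F test, and 18 after the correction. Those of ER quality control had 31 of 44 called, and 18 after it. Of all genes, 69.4% were called before the correction and 55.1% after it. Both libraries numbered 3 were lowest for 6 of the 28 (Eif2b2, Mthfd2, Aars, Gars, Sars and Stc2) and for 2 of the 44 (Dnajb2 and Txndc11), where the background is 6.58%. This is a rank order, and Eif2b2 and Txndc11 were not called in the F test (limma adjusted p of 0.376 and 0.231). Number 2 was lowest for 10 of the 28 and number 1 for 5, beside backgrounds of 43.7% and 23.5%. For the 44 these counts were 22 and 10. Picked after their values were seen, Phgdh and Slc7a5 of the 28 were lowest in number 1, and Slc7a11 and Nars in number 2. Stc2, a secreted glycoprotein known as an ATF4 target, measured 4.92, 5.27 and 1.53 FPKM in AAV-shbrpf1 libraries and 6.66, 4.36 and 1.18 FPKM in AAV-scramble libraries. Mthfd2, a mitochondrial folate enzyme, measured 6.35, 8.09 and 4.30 FPKM in AAV-shbrpf1 libraries and 7.67, 6.75 and 4.03 FPKM in AAV-scramble libraries. Both genes were lower in number 3 than in number 1, by 1.52 and 0.63 on the log2(FPKM + 1) scale, and both were named after their values were seen.

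Markers of interneurons and of other cells and features of ribosomal RNA moved with the number as well. Of the 10 GABAergic markers, 9 were called in the F test, beside 69.4% of all genes. In number 3 minus number 1, 5 of them were called higher and 2 lower (backgrounds 17.6% and 18.5%). The summed level of 10 fibroblast, mural and endothelial markers, 7 of them measured, was 40.6, 2.21 and 2.83 FPKM in AAV-shbrpf1 libraries and 63.1, 1.84 and 3.14 FPKM in AAV-scramble libraries. For 10 radial glia and astrocyte markers, all measured, it was 1047, 436 and 959 FPKM in AAV-shbrpf1 libraries and 1007, 465 and 996 FPKM in AAV-scramble libraries. For 7 markers of the oligodendrocyte lineage, all measured, it was 140, 214 and 274 FPKM in AAV-shbrpf1 libraries and 121, 228 and 289 FPKM in AAV-scramble libraries. The fibroblast sum was thus highest in number 1, the glial sum lowest in number 2 and the oligodendrocyte sum highest in number 3. Fabp7 made up the largest share of the glial sum and Olig1 of the oligodendrocyte sum, and not every marker followed its sum. Of the glial markers, Aldh1l1, Hes5 and Aldoc were lowest in number 1 and Gfap in number 3, and Aldh1l1 was highest in number 2. Sox10 and Cspg4, of the oligodendrocyte lineage, were also highest in number 2. Among the fibroblast, mural and endothelial markers, Pdgfrb averaged 1.31, 0.959 and 1.44 FPKM in numbers 1, 2 and 3. Dcn, Pecam1 and Cldn5 of that list were not measured. Features of ribosomal RNA took 2.64%, 8.33% and 1.498% of the fragments in AAV-shbrpf1 libraries and 1.77%, 5.33% and 1.86% in AAV-scramble libraries. The part of each in the differences between numbers was not tested.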

How the data were processed

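RNA of 6 mouse samples was read in paired-end mode on an Illumina HiSeq, per the labels' protocols. The authors deposited one table, with 55335 genes in rows and the samples in columns. Its header names no unit, and the deposited values were read as FPKM: they are not whole, have no fixed total and, times length, fall on repeated steps in 11673 single-exon genes. The step gave the depth. Only 41.1% to 45.1% of low values (up to 5 steps) were within 0.03 of a whole step, so counts could not be recovered for a count test. The submitters' processing notes name FastQC, StringTie and DESeq2, with no version or role, and build mm9; no source used here gives the aligner, the annotation or the use of strand. Of 55154 identifiers matched in GENCODE M21 (GRCm38), 54899 had the same start and end.

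The 12792 genes averaging 1 FPKM or more in either group were kept. Their log2(FPKM + 1), which understates changes of low genes, entered limma 3.58.1 under R 4.3.3 (two-sided, trend, threshold an adjusted p of 0.05, Benjamini-Hochberg over all genes; for contrasts between numbers, over genes and the 3 contrasts together). Titles give group and number. Deviations from group means correlated at 0.87, 0.83 and 0.57 between same-numbered libraries and at most at 0.00199 between others, so the numbers pair the samples. The main fit had no block, and the block was an alternative. Fits were tested on simulated data with log2 changes of 1 and 2 put in. The fit without the block recovered 0% and 19% of them, and the fit with the block 56% and 85%. The result of 0 calls without the block therefore says little by itself. Changes smaller than 1 were not simulated, so 0 calls with the block does not show that smaller differences were absent. Counting errors assume the longest transcript of a gene and cover counting alone. Promoters were searched in Python 3.11.15.

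Members and lists were chosen with earlier results of these data known. Values per library are given for members past the threshold between viruses, the 2 most abundant of each role, the 5 of smallest p in each direction between viruses and the 3 of smallest p between numbers; Hsp90b1, Stc2, Mthfd2 and Atf3 were added after their values were seen. Alternatives were the pseudocount, the filter, scaling by the median of ratios, the block, leaving out libraries and, chosen after seeing the data, a correction per library for GC content and length (natural splines, 5 degrees of freedom).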

Additional observations from a re-analysis of the deposited data

How the results depend on the processing

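The count of members called between viruses was 0 under each alternative run, including the replicate block (0 of 34; 0 of all genes). Among all genes it ranged from 0 to 8 when libraries were left out: 8 with the replicate block without pair 2 and 1 without pair 3. The median difference of the members ranged from -0.045 to 0.063 when a library was left out. Signs between viruses, none past the threshold, turned when a library was left out for Ern1 (-0.0031 to 0.26), Ddit3 (-0.055 to 0.27), Trib3 (-0.048 to 0.28), Eif2ak4 (-0.11 to 0.29), Asns (-0.18 to 0.29), Hspa5 (-0.42 to 0.10), Sel1l (-0.19 to 0.041) and Chac1 (-0.33 to 0.12). With the replicate block they turned for Asns (-0.13) and Sel1l (0.022) without pair 2 and for Chac1 (0.16) without pair 1. Between numbers, leaving out libraries gave 15 to 28 members called and 3943 to 8885 of all genes, 10 to 19 members in number 2 minus number 1, 3 to 16 in number 3 minus number 1 and 9 to 22 in number 3 minus number 2. These fits hold fewer samples; where a number keeps 1 library, it is assumed to vary like the others. After the GC and length correction 13 members were called in number 2 minus number 1, beside 21 before it. Atf4, Ddit3, Trib3 and Sdf2l1 were called in that contrast only after the correction. With no filter on low values, 5 members were called in number 3 minus number 1, beside 12 in the main fit. In number 3 minus number 2 the count was 12, beside 21. The cause was not tested. Uncalled or lost signs also turned between numbers. Among them were Atf6b and P4hb in number 2 minus number 1 (-0.0085 and -0.059 after the GC and length correction). Others were Eif2ak1 in number 3 minus number 2 (-0.067 with median-of-ratios scaling) and Sdf2l1 in number 3 minus number 1 (-0.43 to 0.11 when a library was left out). With 3 libraries a group and no count per gene, differences within the intervals given could not be seen, and values of Atf3 and Trib3 are limited by depth.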
